A study of Mus musculus with 6 samples.

Results

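Chemokines and their receptors were examined in RNA of mouse liver sinusoidal endothelial cells, the fenestrated lining of the liver's smallest vessels. The members were all 59 protein-coding genes whose symbol carries a chemokine or chemokine receptor stem (Ccl, Cxcl, Cx3cl, Xcl, Ccr, Cxcr, Cx3cr, Xcr or Ackr) and a number, out of 48897 genes in the table. They comprised 37 ligands, 18 conventional receptors and 4 atypical receptors. Cxcl11 matched the symbol but is listed as a transcribed pseudogene and was left out.

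The cells came from C57BL/6 mice aged 7 to 8 weeks, 14 days after partial hepatectomy (PHx, in which part of the liver is cut away) or after a sham operation. They were enriched with magnetic beads against CD146, so other CD146-bearing cells and carried-over cells could be present. Each group held 3 libraries, numbered 1, 3 and 4, and nothing in the labels ties a library to its own animal, so a p-value here reflects the spread among these libraries alone, and that spread may be technical.

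Chemokines are small secreted proteins that bind heparan sulfate on vessel walls and steer leukocytes through G protein-coupled receptors. The CC and CXC families are named after the spacing of their first cysteines. Atypical receptors bind chemokines without the usual G protein signal and remove or transport them. Sinusoidal endothelium makes several chemokines and takes others up, and it is the surface on which blood leukocytes slow and stop in the liver.

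Library totals ranged from 38765116 to 51888481 counts. Values below are CPM, counts scaled to library size with trimmed mean of M-values factors (TMM), and levels of different genes are compared only in the deposited RPKM, which also divides by gene length. All 10 sinusoidal endothelial markers were detected in every library, with a summed level of 31245 to 33086 CPM in Sham and 16804 to 26671 CPM in PHx. The summed level of 10 stellate cell and fibroblast markers was 1655 to 2115 CPM in Sham and 4944 to 6435 CPM in PHx, and that of 8 mesothelial markers 57.9 to 74.6 and 110.6 to 206.3 CPM. The summed level of 10 neutrophil markers was 448.7, 239.95 and 45.6 CPM in Sham 1, 3 and 4 and 812.1, 36.8 and 4855 CPM in PHx 1, 3 and 4. PHx 4 thus stood apart in neutrophil transcripts, and PHx 3 was the lowest of all. In bulk RNA, fewer cells of a type and less RNA per cell cannot be told apart.

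Of the 59 members, 46 had enough counts to be tested. The question was which of them differed between cells taken after PHx and after sham. By the quasi-likelihood test of edgeR, with a threshold of 0.05 on the adjusted p, Ccl7 and Cxcl14 were called higher in PHx (4.35% of those tested), as were 0.846% of all 19033 genes tested. No member was called lower, against 0.0158% of all genes. At an unadjusted p under 0.05, 12 members were higher (26.1% of those tested, against 7.93% of all genes) and 2 were lower (4.73% of all genes were). The log2 fold change was positive in 32 of 46 members (69.6%), against 53% of all genes. Its median was 0.71 over the members and 0.03 over all genes. The members' median was 0.22 without PHx 4. Taken by library, the members' median difference from the Sham mean was 0.74, -0.03 and 0.88 log2 CPM in PHx 1, 3 and 4. PHx 3 thus did not share the shift.

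The number of members called depended on the tool. DESeq2 called 8 members higher and 1 lower, where it called 3.75% and 0.433% of all genes. The fit of edgeR that kept genes of low count called 4 higher and 0 lower, against 1.13% and 0.0947% of all genes. With limma-voom 1 was called higher and 0 lower, against 0.694% and 0.021% of all genes.

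**Figure D1:**
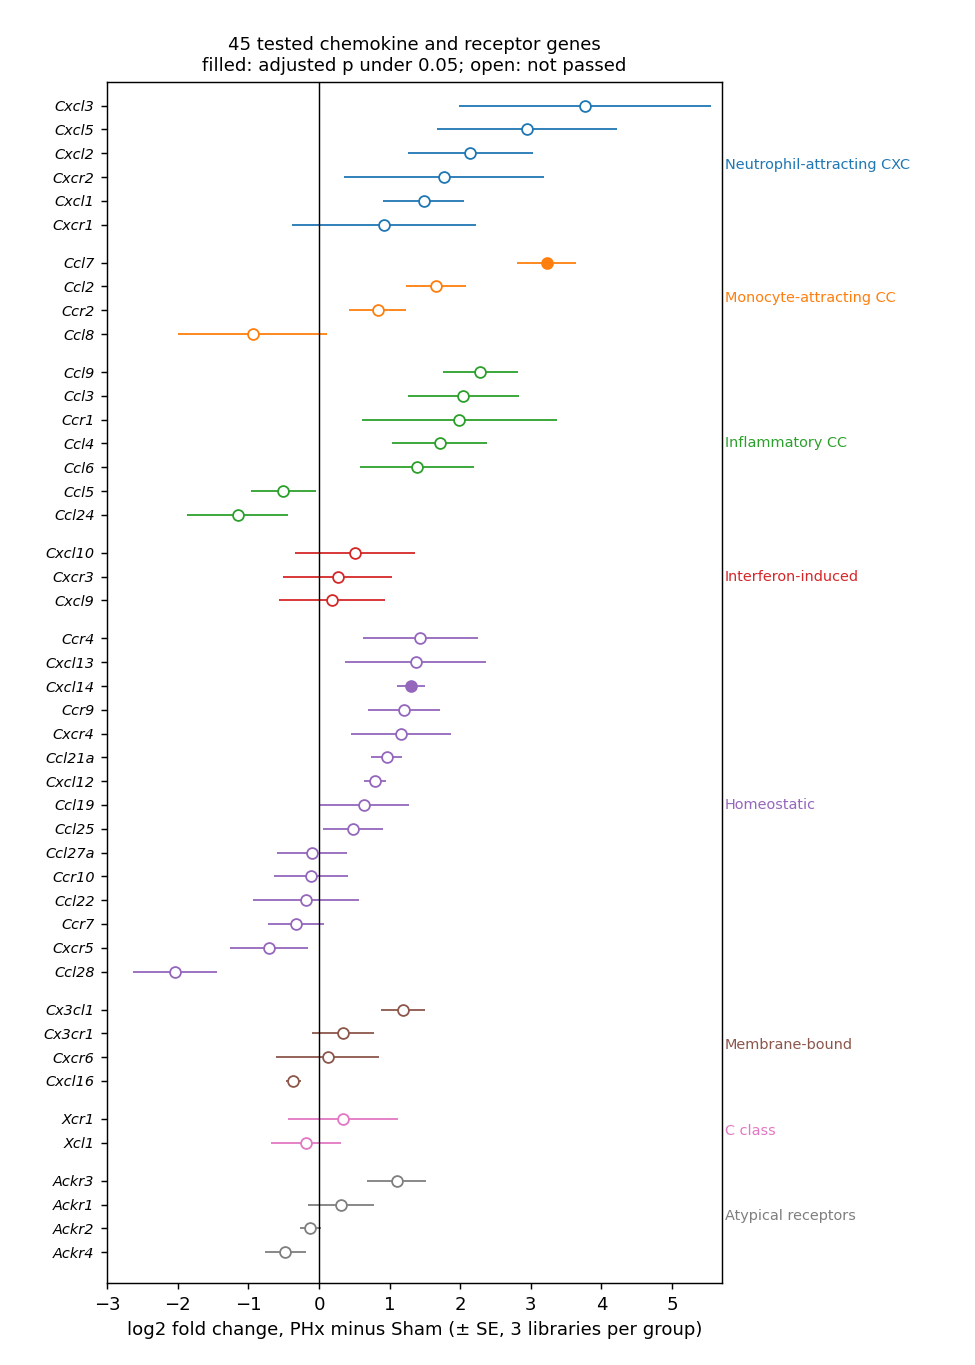
Log2 fold change of PHx over Sham (x axis) for 45 of the 46 tested members, grouped and coloured by role, with bars of 1 SE from edgeR over 3 libraries per group. Ccl7 at 3.23 and Cxcl14 at 1.30 are filled because they passed the adjusted threshold, and the longest bars belong to neutrophil-attracting genes.

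In 7 members every PHx library lay above every Sham library (15.2% of those tested, against 10.6% of all tested genes), and in 2 members every PHx library lay below (4.35%, against 9.96%). These shares were close to the background and are given only to name the genes. The 7 were Ccl2, Ccl7, Ccl9, Ccl21a, Cx3cl1, Cxcl12 and Cxcl14, and the 2 were Ccl28 and Cxcl16. All 9 were ligands, of which 27 were tested, while all 15 tested conventional receptors and all 4 atypical receptors overlapped between the groups. Whether ligands and receptors differ in this was not tested.

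**Figure D2:**
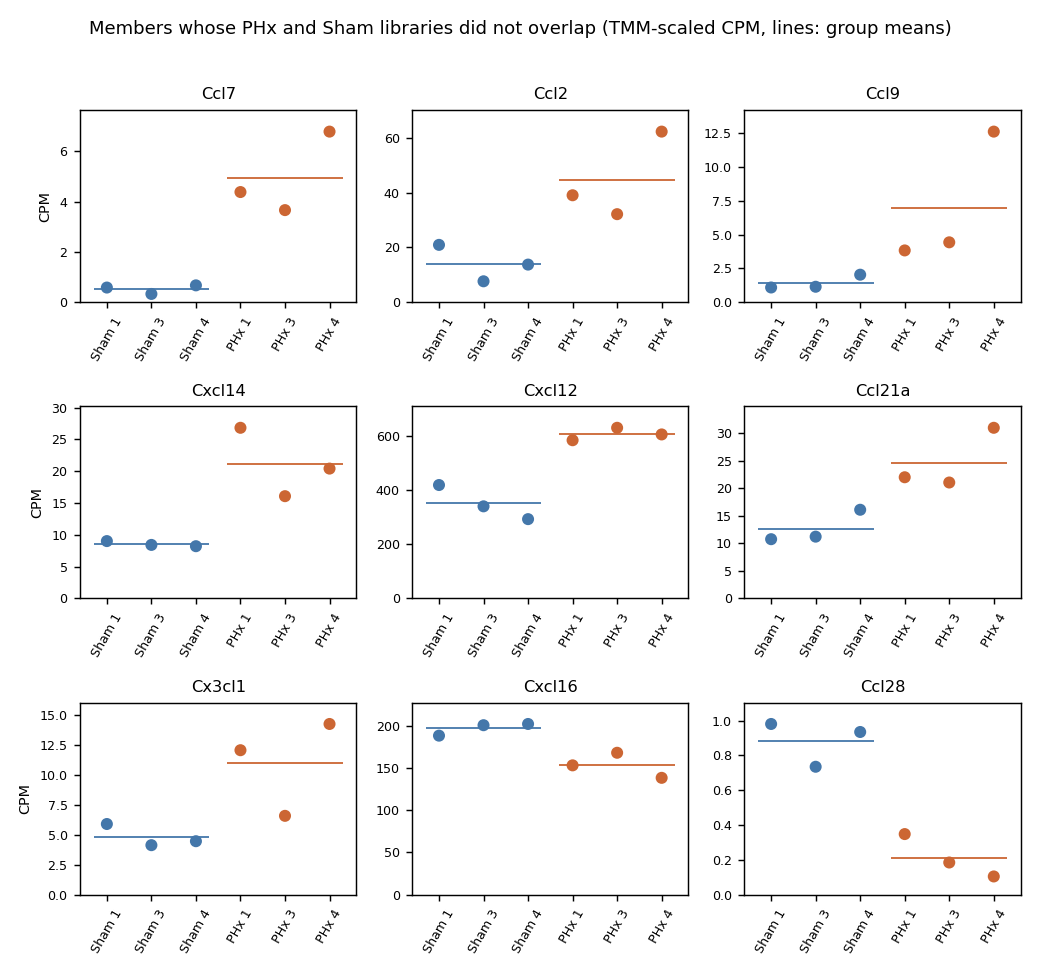
CPM (y axis, from 0) in each of the 6 libraries (x axis) for the 9 members whose groups did not overlap, with a line at each group mean. Ccl7 sits between 0.329 and 0.670 CPM in Sham and between 3.67 and 6.79 CPM in PHx, and Cxcl16 and Ccl28 are the panels in which PHx lies below Sham.

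The monocyte-attracting CC ligands bind Ccr2, the receptor that brings monocytes out of the bone marrow and into inflamed tissue. Ccl7 (chromosome 11, 82045712 to 82047525, mm10), also called MCP-3, was scarce in Sham, at 0.583, 0.329 and 0.670 CPM in libraries 1, 3 and 4. It stood at 4.38, 3.67 and 6.79 CPM in PHx 1, 3 and 4. All PHx libraries were well above all Sham libraries, and the lowest PHx value came from the library poorest in neutrophil transcripts. The part of neutrophils in the Ccl7 values was not tested. Ccl7 rose by 3.23 ± 0.42 on the log2 scale (SE, n = 3 per group, edgeR adjusted p = 0.0221), from 0.527 ± 0.178 to 4.95 ± 1.64 CPM (SD). The log2 fold change was 2.93 without PHx 4 (adjusted p = 0.0371). It stayed between 2.93 and 3.41 in every fit that left out 1 library, but the call was lost without Sham 1, Sham 3, Sham 4 or PHx 1, with adjusted p = 0.103, 0.127, 0.122 and 0.0541.

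Ccl2 (chromosome 11, 82035577 to 82037452), or MCP-1, is the neighbour of Ccl7 and the best known ligand of Ccr2. It was present at 20.9, 7.64 and 13.7 CPM in Sham and at 39.1, 32.2 and 62.3 CPM in PHx 1, 3 and 4. The groups did not overlap, yet the log2 fold change of 1.66 ± 0.42 did not pass (adjusted p = 0.197). DESeq2 gave Ccl2 an adjusted p of 0.000306. Per length, Ccl2 at 55.8 ± 19.0 RPKM remained far more abundant than Ccl7 at 6.24 ± 1.98 RPKM in PHx.

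The next genes of the same chromosome 11 cluster had few counts. Ccl8, or MCP-2, ranged from 0.0773 to 1.48 CPM with both extremes in different groups. Ccl12, the mouse MCP-5, had at most 13 counts in any library and Ccl11, or eotaxin, at most 10, and neither was tested. Ccr2 itself stood at 2.57, 1.72 and 1.54 CPM in Sham and 5.18, 2.21 and 2.98 CPM in PHx, overlapping between groups (log2 fold change 0.83 ± 0.40, adjusted p = 0.443). The summed level of 8 monocyte and dendritic cell markers also overlapped, at 27.1 to 41.5 CPM in Sham and 35.2 to 151.1 CPM in PHx. In PHx 3 that sum was 35.2 CPM, within the Sham range, while Ccl7 and Ccl2 were at 3.67 and 32.2 CPM. The part of monocytes in the Ccl7 and Ccl2 values was not tested. The summed stellate and fibroblast markers and the summed mesothelial markers were higher in all PHx libraries, as Ccl7 and Ccl2 were. Taken singly, 9 of 10 and 6 of 8 of these markers lay wholly above Sham, against 10.6% of all tested genes. The part of those cells in these results was not tested.

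A further group holds inflammatory CC ligands and receptors such as Ccr1, which act on monocytes, neutrophils, eosinophils and T cells. None of the 8 tested members of this group was called, and their median log2 fold change was 1.55. Ccl9, a Ccr1 ligand found in rodents, was at 1.09, 1.14 and 2.03 CPM in Sham and 3.82, 4.42 and 12.6 CPM in PHx. Its groups did not overlap and its log2 fold change was 2.29 ± 0.54 (adjusted p = 0.135, and 0.000228 by DESeq2). The value of 4.42 CPM in PHx 3 came from the library with the least neutrophil RNA. Without PHx 4 the log2 fold change was 1.53. The part of neutrophils in the Ccl9 values was not tested.

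Ccl3 and Ccl4, the macrophage inflammatory proteins, lie head to head on chromosome 11, and their annotated spans overlap on opposite strands. The use of strand in counting is not given in the sources used here, so reads in the overlap cannot be assigned to either. Ccl3 measured 14.8, 7.71 and 12.0 CPM in Sham and 35.0, 11.9 and 95.1 CPM in PHx 1, 3 and 4. Ccl4 measured 13.01, 4.74 and 11.1 CPM in Sham and 24.3, 12.2 and 57.6 CPM in PHx. In both genes PHx 1 and PHx 4 exceeded Sham and PHx 3 lay inside the Sham range. The log2 fold changes were 2.04 ± 0.79 and 1.71 ± 0.67, with an adjusted p of 0.384 and 0.389, and were 1.03 and 0.92 in the fit without PHx 4.

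Ccl6, a rodent relative of Ccl9, was at 6.65 to 14.3 CPM in Sham and at 12.3, 8.34 and 54.5 CPM in PHx 1, 3 and 4. Only PHx 4 was outside the Sham range, and without it the log2 fold change went from 1.39 ± 0.81 to 0.11. Ccl5, or RANTES, made by T and NK cells, was at 13.6, 4.41 and 6.54 CPM in Sham and 8.29, 4.08 and 4.90 CPM in PHx, a log2 fold change of -0.51 ± 0.46. The 9 T and NK cell markers summed to 24.7, 13.7 and 16.5 CPM in Sham and 21.9, 7.15 and 11.2 CPM in PHx, and like Ccl5 they were highest in Sham 1 and lowest in PHx 3. Ccl24, or eotaxin-2, ranged from 0.445 to 1.88 CPM in Sham and from 0.232 to 0.942 CPM in PHx (-1.15 ± 0.72).

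Homeostatic chemokines organise resting leukocyte traffic and the niches of stem and immune cells. Of 15 tested members in this group, 1 was called higher, against 0.846% of all tested genes. In this group 3 members lay wholly above Sham and 1 wholly below, against 10.6% and 9.96% of all tested genes. Counts this small are given only to name the genes. Cxcl14 (chromosome 13, 56288643 to 56296794), a conserved chemokine of epithelia and stroma, was even across Sham at 9.01, 8.41 and 8.21 CPM and stood at 26.8, 16.1 and 20.4 CPM in PHx. Its highest value was in PHx 1, not in PHx 4. Cxcl14 rose by 1.30 ± 0.20 on the log2 scale (adjusted p = 0.0376), from 8.54 ± 0.42 to 21.1 ± 5.41 CPM (SD, n = 3). Over fits that left out a library its log2 fold change ran from 1.09 to 1.46. The call was lost without Sham 1 (adjusted p = 0.133), Sham 3 (0.212), Sham 4 (0.209), PHx 1 (0.0741) or PHx 4 (0.0569), and with limma-voom (0.0705).

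Cxcl12 (chromosome 6, 117168535 to 117181368), the ligand of Cxcr4 and of the atypical receptor Ackr3, was the most abundant homeostatic member per length. It measured 419.6, 340.8 and 293.4 CPM in Sham and 585.5, 631.5 and 606.9 CPM in PHx. The PHx libraries agreed within an SD of 23.0 CPM around 608 CPM, and all stood above the highest Sham library. The log2 fold change of 0.79 ± 0.15 missed the threshold (adjusted p = 0.0707), and it passed in the fit that kept genes of low count (0.00824) and by DESeq2 (0.000862). In RPKM Cxcl12 went from 48.3 ± 8.28 to 85.9 ± 1.73. Cxcl12 is also a known product of stellate and stromal cells. Of 10 stellate cell and fibroblast markers, 6 were called higher in the same libraries, against 0.846% of all tested genes. The part of those cells in the Cxcl12 and Cxcl14 values was not tested.

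Cxcr4, its receptor on leukocytes, had another pattern, at 13.5, 11.2 and 6.03 CPM in Sham and 27.5, 5.43 and 35.7 CPM in PHx. PHx 3 held the lowest Cxcr4 value although its Cxcl12 value was the highest of the 6 libraries. The log2 fold change of Cxcr4 was 1.16 ± 0.71 (adjusted p = 0.540).

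Ccl21a, a Ccr7 ligand of lymphatic endothelium and lymphoid stroma, was at 10.7, 11.2 and 16.1 CPM in Sham and 21.96, 21.01 and 30.9 CPM in PHx. Its groups were separate, with a log2 fold change of 0.96 ± 0.22 (adjusted p = 0.121, and 0.00621 by DESeq2). Near-identical copies of Ccl21a exist in the mouse genome and Ccl21b had at most 2 counts in a library, so reads may have been split or dropped between them. Of 3 lymphatic endothelial markers, Pdpn was called higher, while Prox1 and Flt4 had log2 fold changes of -0.08 and -0.56. Ccl19, the other Ccr7 ligand, ranged from 0.406 to 1.62 CPM over all libraries and its groups overlapped. Ccr7 ranged from 0.985 to 2.07 CPM and overlapped too.

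Ccl28, a mucosal chemokine that binds Ccr10, was low throughout and lower after PHx in every library, at 0.981, 0.735 and 0.935 CPM in Sham and 0.348, 0.184 and 0.104 CPM in PHx. These values rest on 37 to 46 counts per Sham library and 5 to 18 per PHx library. The log2 fold change was -2.04 ± 0.60 (adjusted p = 0.226, and 0.0467 by DESeq2). Ccr10 overlapped between groups at 1.003 to 3.15 CPM, and its count may hold reads of Cntnap1 on the other strand. Cxcl13, the B cell attractant, reached 8.33 CPM in PHx 1 and lay between 0.594 and 2.07 CPM in the other libraries. PHx 1 was also the library with the highest summed B and plasma cell markers, at 45.9 CPM against 15.5 to 26.8 CPM elsewhere. Cxcr5, the receptor of Cxcl13, was lowest in PHx 1, at 0.444 CPM, and its count may hold reads of Bcl9l on the other strand. The part of B cells in the Cxcl13 values was not tested.

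Ccr9, the gut-homing receptor of T cells, was at 0.619 to 1.06 CPM in Sham and 2.99, 1.58 and 0.958 CPM in PHx 1, 3 and 4 (log2 fold change 1.20 ± 0.51, adjusted p = 0.391). The remaining tested homeostatic members reached at most 1.46 CPM in a library. They were Ccl22, Ccl25, Ccl27a, Ccr4 and Cxcr5, with log2 fold changes from -0.71 to 1.43 and no separation of groups.

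Both membrane-bound ligands, which tether leukocytes until proteases shed them, were separated between the groups, in opposite directions. Cx3cl1, or fractalkine, was at 5.91, 4.14 and 4.47 CPM in Sham and 12.1, 6.59 and 14.3 CPM in PHx. Its log2 fold change was 1.18 ± 0.31 (adjusted p = 0.180, and 0.0100 by DESeq2). Cxcl16, which holds Cxcr6-bearing NKT and T cells in the sinusoid, was at 188.4, 200.8 and 202.3 CPM in Sham and 153.2, 168.1 and 138.4 CPM in PHx. The Sham values differed little among themselves (SD 7.61 CPM), and the log2 fold change was -0.36 ± 0.11 (adjusted p = 0.234).

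Cxcl16 overlaps Zmynd15 on the other strand, and Zmynd15 counts reached 101.6 to 230.4 CPM. Zmynd15 was lowest in PHx 4, as Cxcl16 was, and shared reads cannot be told apart here. The sinusoidal endothelial markers were lower in the same libraries, 9 of 10 without overlap, against 9.96% of all tested genes. None of these markers was called, and their median log2 fold change was -0.61. Their part in the Cxcl16 value was not tested. The receptors were scarce and overlapped, Cx3cr1 at 1.90 to 4.98 CPM and Cxcr6 at 0.225 to 1.64 CPM. Cxcr6 lies across Fyco1 on the other strand, which had 71.0 to 130.1 CPM, so the count of Cxcr6 is uncertain. The genes of the C class, Xcl1 and its receptor Xcr1 on cross-presenting dendritic cells, were below 1 CPM in every library.

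The neutrophil-attracting CXC ligands signal through Cxcr2 and lie side by side on chromosome 5. Their promoters are shown because Cxcl1, Cxcl2 and Cxcl3 were all highest in PHx 4 and share a word upstream of the start. Bases 120 to 31 before the annotated start are given 5′ to 3′ on the coding strand from the RefSeq promoter table (GRCm38.p6), with the longest run that the 3 upstream windows share, GGGAATTTCCC, in capitals. The run fits the consensus of NF-kB sites.
Cxcl1, chr5:90891125-90891214, plus strand: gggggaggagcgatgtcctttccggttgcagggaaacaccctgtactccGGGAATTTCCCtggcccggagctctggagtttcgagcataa
Cxcl2, chr5:90903779-90903868, plus strand: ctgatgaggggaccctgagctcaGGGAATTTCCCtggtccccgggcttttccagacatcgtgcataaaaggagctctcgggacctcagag
Cxcl3, chr5:90785981-90786070, plus strand: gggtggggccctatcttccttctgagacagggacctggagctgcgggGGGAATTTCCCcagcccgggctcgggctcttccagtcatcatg
The run began 71, 97 and 73 bases before the start of Cxcl1, Cxcl2 and Cxcl3. It occurred on either strand in 0.0426% of all 32851 windows of 250 bases before a start, and among the 45 members with a window in these 3 alone, which were the ones used to find it. Of the 40 bases flanking the run, 18 matched between Cxcl1 and Cxcl2, 15 between Cxcl1 and Cxcl3 and 10 between Cxcl2 and Cxcl3. A match is a description of these letters and shows no binding.

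Cxcl1, or KC, stood at 44.9, 23.8 and 55.8 CPM in Sham and 46.9, 119.99 and 180.4 CPM in PHx 1, 3 and 4. PHx 1 was inside the Sham range, and the highest values were in PHx 4 and in PHx 3, the library with the fewest neutrophil transcripts. Its log2 fold change was 1.48 ± 0.57 (adjusted p = 0.380, and 0.0157 by DESeq2). Cxcl2, or MIP-2, stood at 66.7, 22.3 and 31.7 CPM in Sham and 105.9, 48.8 and 377.5 CPM in PHx 1, 3 and 4. PHx 4 was far above the rest and PHx 3 inside the Sham range, so the log2 fold change of 2.14 ± 0.89 became 0.95 without PHx 4.

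Cxcl3 had the largest log2 fold change of all tested members, 3.77 ± 1.79, and it came from 1 library. The gene stood at 20.1 CPM in PHx 4 and between 0.348 and 0.769 CPM in the other 5 libraries. Without PHx 4 the log2 fold change was -0.40. Cxcl5 was at 4.11 and 8.37 CPM in PHx 1 and PHx 4 and at 0.369 CPM in PHx 3, with 0.0813 to 1.12 CPM in Sham (2.95 ± 1.27, and 2.01 without PHx 4). Of the 6 tested members of this group none passed, all 6 were highest in PHx 4, and their median log2 fold change was 1.96. PHx 4 was the highest library in 50% of all tested members and in 26.6% of all tested genes.

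Cxcr2, which marks neutrophils, followed the neutrophil markers. It was at 21.3, 13.7 and 3.35 CPM in Sham and 36.2, 1.29 and 93.2 CPM in PHx 1, 3 and 4. The 6 libraries fell in the same order for Cxcr2, Ccr1, Cxcr4 and the sum of 10 neutrophil markers, which was PHx 4, PHx 1, Sham 1, Sham 3, Sham 4 and PHx 3. These were 3 of 46 tested members, and 0.94% of all tested genes had this order. Ccr1 stood at 12.6, 5.34 and 2.26 CPM in Sham and 21.2, 0.963 and 57.3 CPM in PHx. The log2 fold changes of Cxcr2 and Ccr1 were 1.77 ± 1.42 and 1.98 ± 1.38, and 0.55 and 0.73 without PHx 4. Cxcr1 ranged from 0 counts in PHx 3 to 1.25 CPM in PHx 4. The part of neutrophils in the values of these receptors and ligands was not tested.

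**Figure D3:**
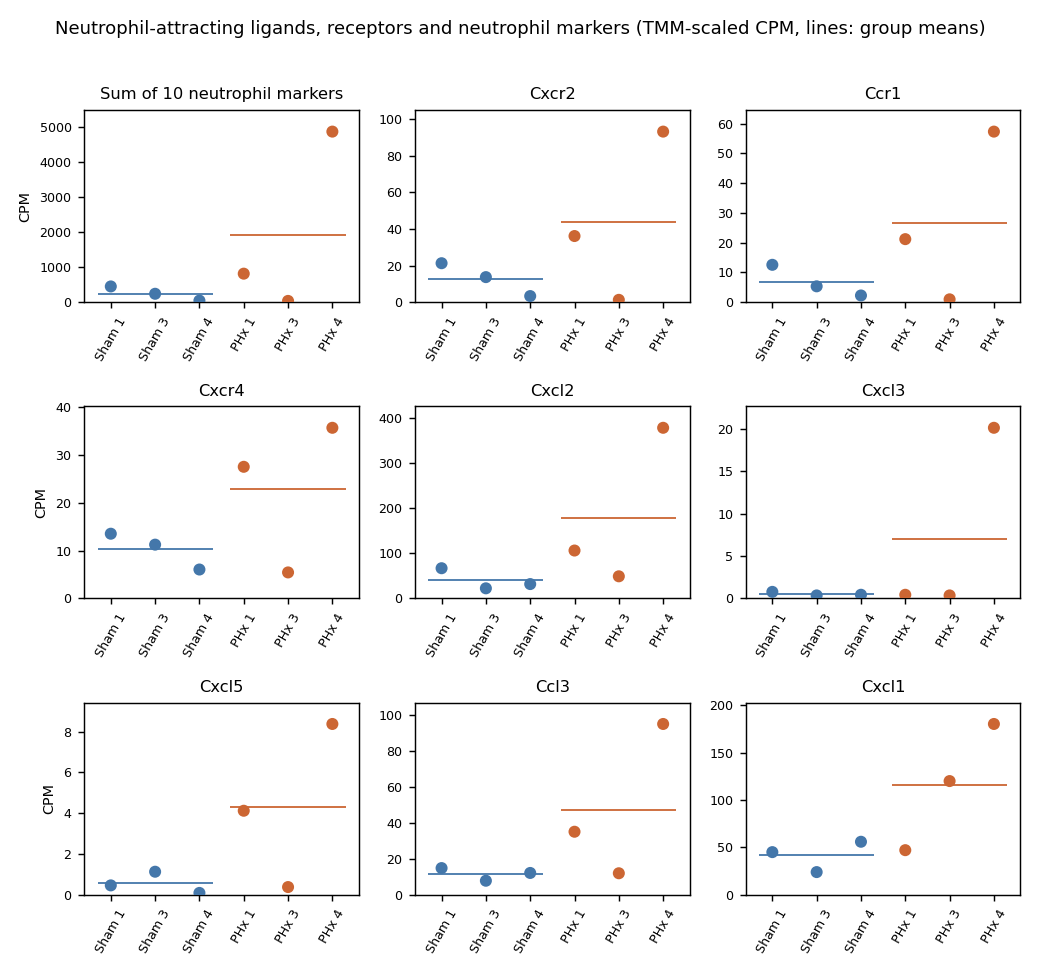
CPM (y axis, from 0) by library (x axis) for the sum of 10 neutrophil markers and for 8 members, with a line at each group mean. The marker sum, Cxcr2, Ccr1 and Cxcr4 share their order of libraries from PHx 4 down to PHx 3, whereas Cxcl1 is high in PHx 3 at 119.99 CPM.

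The interferon-induced ligands Cxcl9 and Cxcl10 bind Cxcr3 on T and NK cells. Cxcl10 had the highest level per length of all members, at 387 ± 246 RPKM in Sham and 554 ± 365 RPKM in PHx. In CPM it stood at 453.9, 147.7 and 696.0 in Sham 1, 3 and 4 and at 142.0, 789.1 and 910.3 in PHx 1, 3 and 4. Cxcl9 stood at 206.4, 109.3 and 364.3 CPM in Sham and 67.1, 334.1 and 372.1 CPM in PHx. Both genes were low in Sham 3 and PHx 1 and high in Sham 4, PHx 3 and PHx 4, so they varied within the groups by more than between them. Their log2 fold changes were 0.50 ± 0.85 and 0.19 ± 0.75, with an adjusted p of 0.835 and 0.939.

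Irf1, a transcription factor induced by interferons and by NF-kB, stood at 460.5, 277.5 and 733.7 CPM in Sham and 219.6, 698.5 and 1259 CPM in PHx, the same order of libraries as Cxcl9. That order was shared by 0.426% of all tested genes. Ifng had another order of libraries, at 2.65, 1.26 and 1.75 CPM in Sham and 2.22, 0.717 and 0.542 CPM in PHx 1, 3 and 4. Cxcr3 ranged from 0.143 to 1.51 CPM and overlapped. The count of Cxcl10 may hold reads of Art3, which overlaps it on the other strand at 28.1 to 50.5 CPM.

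A stretch of the Cxcl10 promoter is shown because it holds a pair of GAAA words 2 bases apart, the core of the interferon-stimulated response element, in capitals, beginning 213 bases before the start. The stretch covers bases 240 to 151 before the start.
Cxcl10, chr5:92349040-92349129, minus strand: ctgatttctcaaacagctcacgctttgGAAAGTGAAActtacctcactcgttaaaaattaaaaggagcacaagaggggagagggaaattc
This pair occurred on either strand in 2.98% of all windows and in 3 of 45 members, Ccl19, Cxcl10 and Cxcl14, and the window of Cxcl9 did not hold these letters. The NF-kB consensus, which the shared run above overlaps, was found in 7.25% of windows and in 11 members, Cxcl10 among them. TTCNNNGAA, a STAT-type word, was found in 7.02% of windows and in 3 members.

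**Figure D4:**
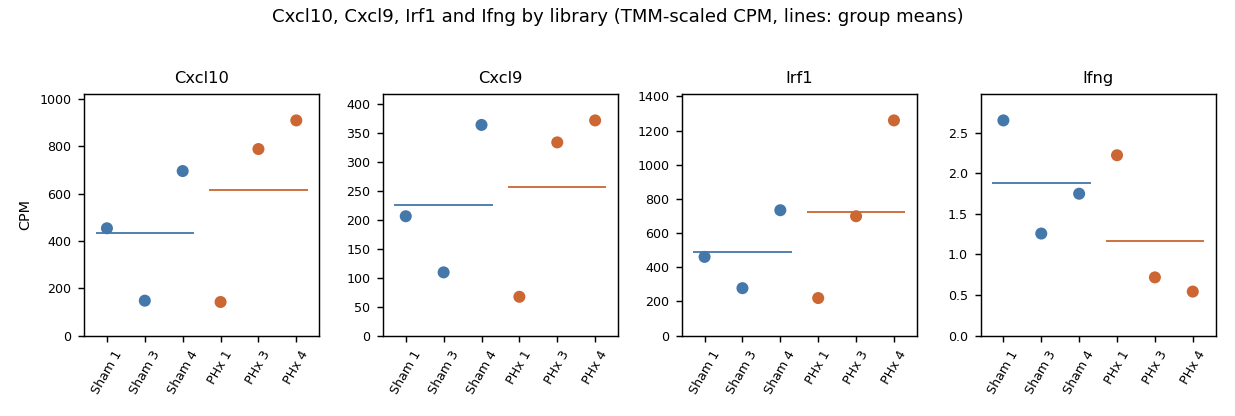
CPM (y axis, from 0) by library (x axis) for Cxcl10, Cxcl9, Irf1 and Ifng, with a line at each group mean. Cxcl10, Cxcl9 and Irf1 are lowest in PHx 1 and highest in PHx 4, while Ifng is lowest in PHx 4 at 0.542 CPM.

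All 4 atypical receptors were well expressed, with levels over the 6 libraries of 44.9 RPKM for Ackr1, 44.8 for Ackr2, 16.8 for Ackr3 and 5.39 for Ackr4. The median over the 15 tested conventional receptors was 0.688 RPKM. None was called. Ackr2, which degrades inflammatory CC chemokines, was at 169.9, 155.3 and 117.7 CPM in Sham and 125.8, 141.4 and 139.0 CPM in PHx, inside the Sham range throughout (log2 fold change -0.12 ± 0.15, adjusted p = 0.743). Ackr1, the Duffy antigen of venular endothelium, was at 42.4 to 49.1 CPM in Sham and 42.1, 28.9 and 102.3 CPM in PHx 1, 3 and 4. Its log2 fold change of 0.31 ± 0.47 became -0.39 without PHx 4.

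Ackr3, a scavenger of Cxcl12, was at 37.4, 23.7 and 13.2 CPM in Sham and 51.1, 36.8 and 70.99 CPM in PHx. PHx 3 lay just under Sham 1, so the groups overlapped (1.10 ± 0.42, adjusted p = 0.371). Ackr4, which removes Ccl19, Ccl21 and Ccl25, was at 31.4, 41.5 and 35.4 CPM in Sham and 23.3, 37.8 and 16.6 CPM in PHx (-0.48 ± 0.29, adjusted p = 0.528). Ackr4 overlaps Acad11 on the other strand, at 24.8 to 28.4 CPM.

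Of 46 further genes of the chemokine pathway without a family symbol, 45 were tested and none was called in either direction. At an unadjusted p under 0.05, 5 were higher and 4 lower, where 7.93% and 4.73% of all tested genes were. The median log2 fold change of the 45 was 0.33. In 5 of them every PHx library lay above Sham and in 4 every one lay below, against 10.6% and 9.96% of all tested genes. These shares were close to the background. Gpr182, a chemokine-scavenging receptor of sinusoidal endothelium, stood at 1852, 1933 and 1639 CPM in Sham and 1155, 1499.8 and 1295 CPM in PHx. All its PHx values were below Sham (-0.46 ± 0.16, adjusted p = 0.301), as were those of 9 of 10 endothelial markers and of 9.96% of all tested genes. Grk5, a kinase that silences activated receptors, stood at 36.5, 28.5 and 29.3 CPM in Sham and 65.0, 48.8 and 67.2 CPM in PHx (0.94 ± 0.16, adjusted p = 0.0515). Arrb1, an arrestin that ends receptor signalling, had a log2 fold change of -0.33 ± 0.14 and separate groups, and Dpp4, a protease that clips chemokines, one of -0.58 ± 0.24. Ccrl2, a chemerin-binding relative of the family, was at 46.7 to 74.7 CPM in Sham and 89.3, 64.7 and 237.8 CPM in PHx (1.09 ± 0.53), and Cmklr1, the chemerin receptor, had 0.33 ± 0.31. Pf4 and Ppbp, the platelet chemokines, were at 2.20 to 3.62 and 0.265 to 1.55 CPM and overlapped between groups.

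The 13 members that were not tested were Ccl1, Ccl11, Ccl12, Ccl17, Ccl20, Ccl21b, Ccl26, Ccl27b, Ccr3, Ccr6, Ccr8, Cxcl15 and Cxcl17. None had more than 26 counts in a library, and that value was Ccl20 in PHx 4. Ccl1 had 0 counts in all 6 libraries, which allows up to 3 counts per library, or 0.0580 to 0.0795 CPM, for counting error only.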

How the data were processed

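The deposited table held, for each gene and library, 1 count and 1 RPKM value, in 3 Sham and 3 PHx libraries. Per the submitters' processing notes, bcl2fastq and TopHat2 2.0.13 were used with mm10 (GRCm38). The counting program, annotation release and use of strand are not given in the sources used here. The deposited RPKM equalled the count scaled by the deposited gene length and the summed counts of the library for 100% of values (relative tolerance 1e-06).

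Counts were tested over the whole table with edgeR 4.0.16 in R 4.3.3 (TMM scaling, filterByExpr, robust quasi-likelihood F-tests, group as the only term, Benjamini-Hochberg adjustment over 19033 genes, threshold 0.05). SE is the absolute log2 fold change over the square root of F. The members and lists were chosen with earlier results of these data known. Library values are given for members that were called, did not overlap or averaged at least 5 CPM, and for their receptors or ligands. Other members are named by group. 1 member is included in the counts and is not reported here. Promoter words were searched on both strands. The library orders and promoter words were chosen after values were seen. Alternatives included DESeq2 1.42.0 and limma-voom (limma 3.58.1).

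On simulated counts the test recovered 27% of genes changed by 1 and 76% of those changed by 2 on the log2 scale. Of 113 calls among 18434 genes, 10 were false. The changed genes were drawn only from genes above a minimum mean count, so these rates do not cover members of low count. No library was a copy of another, with a chi-square per degree of freedom of at least 55.7 in every pair. All 134 listed symbols and 59 members were matched, 45 members to a promoter window. 18 members overlap another gene in the table.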

Additional observations from a re-analysis of the deposited data

How the results depend on the processing

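Of 59 members, 2 were called higher and 0 lower, and at an unadjusted p under 0.05 edgeR gave 12 higher and 2 lower. Both numbers of calls were the same with median-of-ratios or upper-quartile factors and with at least 1 CPM in 3 libraries, where 0.809% to 1.16% of all genes were called higher. The number higher was 4 with no filter on low counts, 8 (and 1 lower) with DESeq2 and 1 with limma-voom, and the cause was not tested. With any 1 library left out, 0 to 2 were called higher, with a median log2 fold change over the tested members from 0.22 (without PHx 4) to 0.82. That median was 1.15 over the fewer members with at least 1 CPM in 3 libraries. With the replicate number as a block 0 were called in either direction, and Ccl7 had an adjusted p of 0.0769 and Cxcl14 of 0.129. Deviations from the group means correlated at -0.10, -0.23 and 0.03 between same-numbered libraries, and from -0.38 to 0.47 between libraries of unlike number. With 3 libraries per group these values cannot show whether a number marks a shared day, litter or batch. Fits without Sham 4 and PHx 4 together (0 higher, against 0.125% of all genes) and DESeq2 without Sham 4 (7 higher and 0 lower, against 3.01% and 0.269%) were chosen after seeing the data. Over all genes edgeR called 161 higher and 3 lower, against 359 and 30 without a filter, 727 and 84 with DESeq2, 14 and 1 with the block, and 0 to 160 and 0 to 9 with 1 library left out (0 and 0 without Sham 4). Some log2 fold changes changed sign. Cxcr3 was at -0.14 and Cxcr6 at -0.10 with limma-voom, and they were at -0.13 and -0.094 with the block. Without Sham 4 and PHx 4, Ackr1 was at -0.46, Ccl6 at -0.024, Cxcl3 at -0.52 and Cxcr6 at -0.23, and Cxcr6 was at -0.22 with DESeq2 without Sham 4. The ranges with any 1 library left out were -0.39 to 0.63 for Ackr1, -0.87 to 0.048 for Ccl5, 0.11 to 1.79 for Ccl6, -0.79 to 0.17 for Ccr10, -0.26 to 0.58 for Cx3cr1 (0.66 without Sham 4 and PHx 4), -0.40 to 4.32 for Cxcl3, -0.18 to 0.67 for Cxcl9, -0.42 to 0.76 for Cxcr3 and -0.55 to 0.58 for Cxcr6. With 3 libraries per group, changes of the size of Cxcl12 or Ccl2 can miss the adjusted threshold, and members under 1 CPM rest on few counts.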

Other observations

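Cxcl11, the third ligand of Cxcr3, is annotated as a transcribed pseudogene in this table and belongs to no comparison above. Its counts were 126, 46 and 190 in Sham 1, 3 and 4, and the PHx libraries held 61, 296 and 656 counts in the same order. Like Cxcl9 and Cxcl10, it was low in Sham 3 and PHx 1 and highest in PHx 4, at 0.889, 1.18 and 13.7 CPM. Its log2 fold change was 1.37 ± 0.93 (edgeR adjusted p = 0.574).

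All 59 members together summed to 1801, 1215 and 1951 CPM, here without the TMM factors, in Sham 1, 3 and 4. In PHx 1, 3 and 4 the sum was 1768, 2445 and 3479 CPM. A few abundant genes make up much of this sum. In PHx 3, Cxcl10, Cxcl12 and Cxcl9 held 38532, 30836 and 16313 of the 121317 member counts. Sham 3 was the lowest library in 14 of 46 tested members, PHx 3 in 12 and PHx 1 in 6.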
